A study of Mus musculus with 15 samples.

Results

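The nuclear-encoded subunits of the mitochondrial respiratory chain and ATP synthase were followed across 5 groups of sorted mouse liver cells. Genes were chosen by name and level, with earlier results of these data known. The name had to be an Nduf, Sdh, Uqcr, Cyc1, Cox4 to Cox8 or Atp5 symbol of the pattern used for subunits. The level had to be at least 1 TPM (a transcript's share of its library, corrected for length) in at least 3 of the 15 libraries. Of 24493 genes in the table, 83 carried such a name and 78 of these reached the minimum, out of 13905 genes tested in all. By name, 36 belong to complex I, 4 to complex II, 9 to complex III, 13 to complex IV and 16 to complex V, the ATP synthase. The other 5 names, Cox4i2, Cox6a2, Cox7b2, Cox8b and Cox8c, are tissue-restricted forms of complex IV subunits and stayed at or below 1.78 TPM in every library. None of the mitochondrially encoded subunits is listed in the table, so only the nuclear part of each complex was measured.

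All mice had been injected at 4 weeks of age with AAV-TBG-Cre, a viral vector that expresses Cre recombinase from the hepatocyte promoter TBG. DDC mice were moved at 5 weeks to chow with DDC (diethoxycarbonyl dihydrocollidine), a compound that injures bile ducts, and stayed on it for 4 weeks. The groups are hepatocytes and biliary epithelial cells of untreated mice, and hepatocytes, biliary epithelial cells and reprogrammed cells of DDC mice, with 3 libraries each. Reprogrammed cells are named so by the labels, which do not give the sort markers. Nothing in the labels says that the 3 libraries of a group came from separate mice, so the p-values measure the spread between libraries, which may be technical.

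Complex I (NADH dehydrogenase) and complex II (succinate dehydrogenase, also an enzyme of the citric acid cycle) pass electrons to ubiquinone, complex III passes them to cytochrome c, and complex IV reduces oxygen. The proton gradient built by complexes I, III and IV drives ATP synthesis by complex V. Hepatocytes are rich in mitochondria, which serve fatty acid oxidation, urea synthesis and gluconeogenesis. Transcription of the nuclear subunit genes is known to be driven in common by NRF1, the GABP factors, YY1 and the estrogen-related receptors, with coactivators of the PGC1 family.

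Promoter sequences are shown for 3 members that fell in biliary cells of both livers on scaled values and for 3 complex IV genes that did not fall there in untreated livers, since the subunit genes are known for shared motifs. RefSeq promoters on GRCm38.p6, 250 bases before to 50 after each start, were found for 66 of the 78 members, 71 promoters in all. On either strand, the NRF1 motif GCGCANGCG was in 21 of the 71 promoters (29.6%), and in 6.25% of all 32851 promoters of the same length. The GABP motif CCGGAAG was in 16 (22.5%, against 8.86%), and the YY1 motif AANATGGCG in 10 (14.1%, against 2.38%). In all, 38 members held at least 1 of the motifs, and Atp5h, Atp5k, Atp5l, Cox6a1, Sdhd and Uqcr11 held both NRF1 and GABP matches. Stretches before the start that overlap no annotated exon follow, 5′ to 3′ on the gene's strand, with matches in capitals. The window of Uqcr11, a small complex III subunit, (chr10:80406831-80407030, minus strand) holds a GABP match. That of Cox6a1, the common form of a complex IV subunit, (chr5:115348982-115349129, minus strand) holds an NRF1 run that reads on both strands, overlapping itself, and another NRF1 match nearer the start. The window of Atp5h, in the stalk of ATP synthase, (chr11:115419963-115420127, minus strand) holds an NRF1 match. No match lies in those of Cox7a2l, linked to supercomplexes (chr17:83514334-83514533, minus strand), Cox6b2, known from testis (chr7:4753095-4753225, minus strand), and Cox7a1, known from heart and muscle (chr7:30183944-30184143, plus strand). The first 3 windows belong to members with both NRF1 and GABP matches, so the windows do not compare motifs with falls, which was not tested. Of the members that stood below the others in biliary cells of both livers, Uqcr11, Cox6a1, Sdhb, Sdhd and Atp5g3 hold matches. Cox5a, Ndufa1, Atp5f1 and Atp5g1 hold none, and for Uqcrq, Cyc1 and Ndufb9 no promoter was found. Of those that stood above in both, Atp5g2 and Ndufa6 hold NRF1 matches, and Ndufb3, Ndufc2, Cox6b2 and Cox7a2l hold none of the motifs. A match describes letters only, and its absence says nothing of the factor.
Uqcr11: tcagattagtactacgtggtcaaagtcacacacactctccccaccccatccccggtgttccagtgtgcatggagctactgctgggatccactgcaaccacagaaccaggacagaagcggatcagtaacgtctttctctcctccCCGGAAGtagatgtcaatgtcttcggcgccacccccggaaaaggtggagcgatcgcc
Cox6a1: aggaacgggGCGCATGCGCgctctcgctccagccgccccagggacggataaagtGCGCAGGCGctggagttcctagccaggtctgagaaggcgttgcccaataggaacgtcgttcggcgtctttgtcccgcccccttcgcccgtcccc
Atp5h: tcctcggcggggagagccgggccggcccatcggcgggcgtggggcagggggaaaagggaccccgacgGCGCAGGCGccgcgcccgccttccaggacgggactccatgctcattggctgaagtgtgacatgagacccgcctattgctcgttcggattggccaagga
Cox7a2l: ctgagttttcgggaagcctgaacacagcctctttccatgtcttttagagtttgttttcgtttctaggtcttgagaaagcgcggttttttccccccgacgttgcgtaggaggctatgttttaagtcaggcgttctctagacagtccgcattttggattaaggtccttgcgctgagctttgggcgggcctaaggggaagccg
Cox6b2: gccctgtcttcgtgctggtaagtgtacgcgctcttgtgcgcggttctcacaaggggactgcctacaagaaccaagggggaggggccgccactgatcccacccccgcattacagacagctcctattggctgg
Cox7a1: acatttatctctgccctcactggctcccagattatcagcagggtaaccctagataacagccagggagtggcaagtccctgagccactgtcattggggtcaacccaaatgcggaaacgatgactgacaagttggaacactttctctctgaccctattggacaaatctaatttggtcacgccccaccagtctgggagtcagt

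Respiratory subunit mRNA took a similar share of the deposited TPM in every group, while its level against the typical gene was far higher in hepatocytes. Summed over the 78 genes, the share was 2.95%, 2.90% and 3.24% in untreated hepatocytes, 2.76%, 2.95% and 3.41% in DDC hepatocytes, and 2.90%, 3.09% and 2.91% in reprogrammed cells. Biliary libraries held 2.56%, 2.46% and 2.29% under DDC and 2.73%, 2.67% and 2.74% untreated, so the highest library of all stood 1.49 times above the lowest. After each library was scaled to the median gene (scaled TPM), the summed level was 51817 ± 3922 in untreated hepatocytes (SD, n = 3), 43811 ± 8671 in DDC hepatocytes, 24521 ± 4213 in reprogrammed cells, 16056 ± 1949 in DDC biliary cells and 19187 ± 1249 in untreated biliary cells. On that scale the libraries spanned 3.99-fold, and no hepatocyte library overlapped a library of another type.

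Differences are given on both scales, because the choice decides how many members pass. The 10 most abundant genes took 23.4% to 29.6% of the total in hepatocyte libraries and 13.3% to 19.3% in the others, and with deposited TPM the median of all genes tested was 1.11 higher (log2) in untreated biliary cells than in untreated hepatocytes. Another reading needs no scale between libraries: within a library, the mean log2(TPM + 1) of the members minus that of the 77 cytosolic ribosomal protein genes was −0.34 to −0.27 in untreated hepatocytes, −0.95 to −0.73 in DDC hepatocytes and −1.39 to −1.23 in reprogrammed cells. That difference was −1.69 to −1.51 in DDC biliary cells and −1.36 to −1.14 in untreated biliary cells. Against the 78 mitochondrial ribosomal protein genes the same quantity was 2.80 to 2.85 in untreated hepatocytes and 2.41 to 2.48 in untreated biliary cells, so the subunits were lower in biliary cells also relative to those mitochondrial genes. In deposited TPM the geometric mean of the members averaged 259 in untreated hepatocytes and 250 in untreated biliary cells. That of the cytosolic ribosomal protein genes averaged 323 and 613, and that of the mitochondrial ones 35.8 and 45.1. Between these 2 groups both quantities thus differed mostly through the ribosomal protein genes.

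Hepatocyte transcripts were present in every fraction. The summed TPM of 6 hepatocyte markers, albumin among them, was 79059 to 87399 in untreated hepatocytes, 55080 to 93921 in DDC hepatocytes, 30660 to 76865 in reprogrammed cells, 20653 to 40555 in DDC biliary cells and 39697 to 46012 in untreated biliary cells. The 6 biliary markers summed to 4.39 to 6.96 TPM in untreated hepatocytes, where Krt7 and Cldn7 were at 0, and to 183 to 378 in DDC hepatocytes. Their sums were 4653 to 14612 in reprogrammed cells, 10993 to 19096 under DDC in biliary cells and 14122 to 17173 in untreated ones. Macrophage markers summed to 5.23 to 10.9 TPM in untreated hepatocytes and 70.6 to 116 in untreated biliary cells, and to 4.11 to 5.43 and 28.04 to 80.6 in the same cells under DDC, with 17.6 to 36.9 in reprogrammed cells. Markers of stellate cells and fibroblasts summed to 0.672 to 3.06 and 26.98 to 44.9 TPM untreated, 7.44 to 8.85 and 18.5 to 121 under DDC, and 19.5 to 68.7 in reprogrammed cells. All 6 genes of either list were above 0 in at least 1 library of each group. In such libraries fewer cells of a type and less RNA per cell cannot be told apart, and the part of RNA from other cell types in the subunit levels was not tested.

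**Figure D1:**
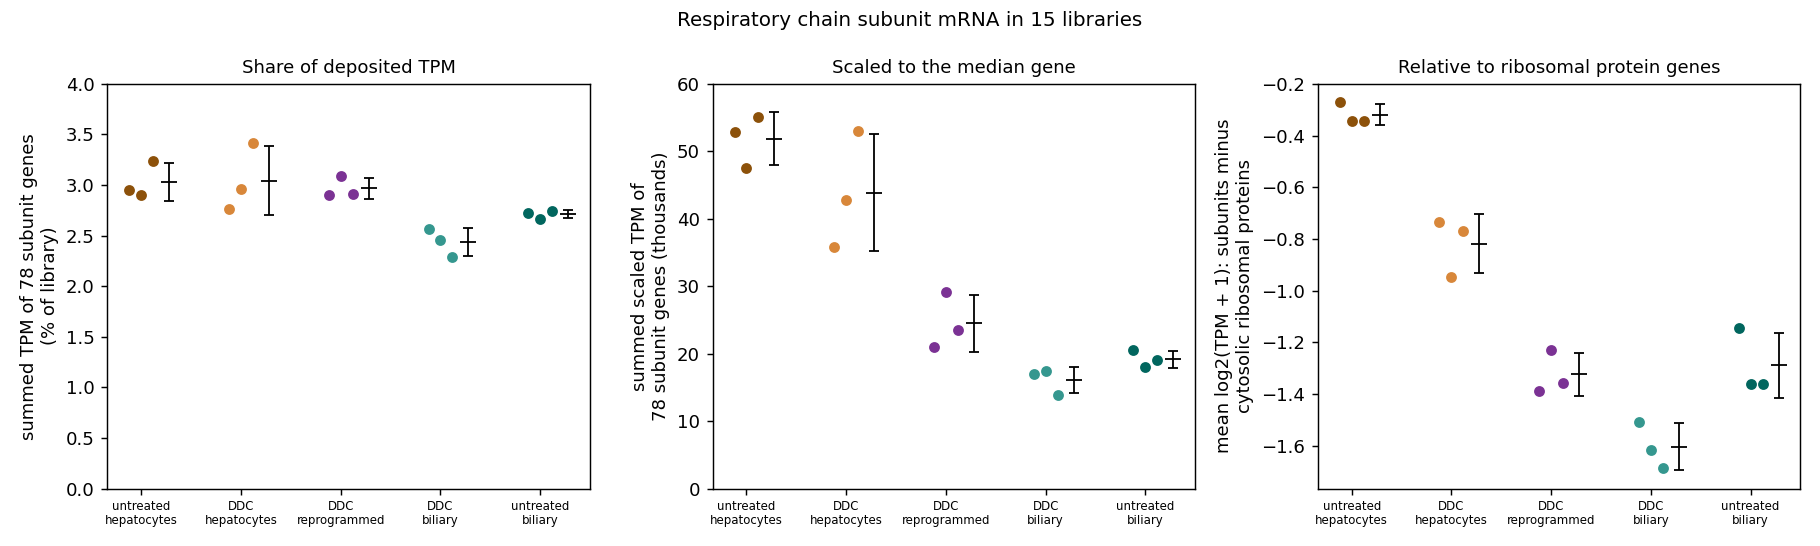
Each point is 1 library of the group on the x axis, with the mean and SD (n = 3) beside it: the share of deposited TPM in the 78 genes (left), their summed scaled TPM (middle), and their mean log2(TPM + 1) minus that of the cytosolic ribosomal protein genes (right). Shares lie between 2.29% and 3.41% in all groups, whereas the scaled level goes from 51817 in untreated hepatocytes to 16056 in DDC biliary cells.

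**Figure D2:**
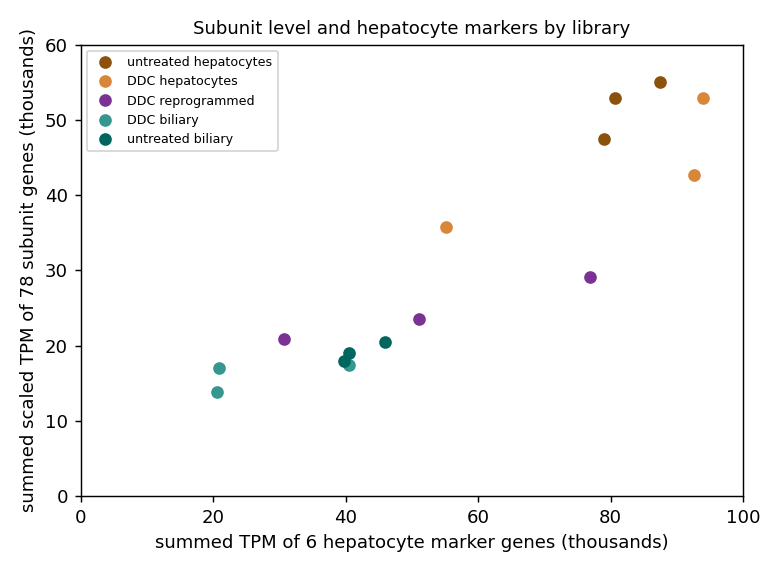
Each point is 1 library, with the summed TPM of 6 hepatocyte marker genes on the x axis and the summed scaled TPM of the 78 subunit genes on the y axis. The 6 hepatocyte libraries lie highest on the y axis, and reprogrammed library 2, with a marker sum of 76865, is the highest of the reprogrammed cells. The y values were divided by a library scale factor of 0.558 to 0.772 in hepatocyte libraries and 1.06 to 1.65 in the others. TPM sum to a fixed total, so abundant hepatocyte transcripts lower that factor, and the axes are not independent.

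In deposited TPM the members varied less between libraries than the typical gene did. This was not computed on scaled TPM, where their summed level spanned 3.99-fold, nor against genes of like abundance. Their coefficient of variation of deposited TPM over the 15 libraries had a median of 13.7%, and that of all genes tested was 52.8%. Levels differed widely between subunits: Atp5k, a small membrane subunit of ATP synthase, averaged 1402 TPM, Ndufa4 1215, Cox7c 1172, Cox4i1 1149 and Atp5b 1079, and no other member averaged over 1000. Ndufa4 is named for complex I but is now placed in complex IV. Below 100 TPM were Ndufs1 at 76.6, Ndufs4 at 61.3, Cox7a1 at 29.9, Ndufa11 at 19.2, Atp5s at 8.66 and Cox6b2 at 8.31 TPM. Within complex II the 4 genes lay close together, from Sdhb at 213 to Sdha at 282 TPM. Complex III ran from Uqcrq at 158 to Uqcr11 at 632 TPM. In the reference annotation 23 members overlap another gene, and several have close paralogs or processed copies (the Atp5g and Cox7a families), so reads may have been split between them.

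Biliary cells had lower subunit levels than hepatocytes in untreated livers when libraries were scaled to the median gene, in all 5 complexes. Of the 78 members 74 fell and 1 rose (limma, Benjamini-Hochberg adjusted p under 0.05), where 29.9% of all genes fell and 37% rose. The median member differed by −1.38 (log2), the median gene by 0.12, and 71 members fell by at least 1 on the log2 scale, as did 15.6% of all genes. Every complex I, II and III member fell, as did 10 of 13 in complex IV and 15 of 16 in complex V, with medians of −1.36 for complex I, −1.56 for II, −1.48 for III, −1.41 for IV and −1.37 for V. Cox7a2l, Cox7a1 and Atp5s did not pass. With the replicate number as a block 75 fell and 2 rose. With deposited TPM 18 members fell and 7 rose (7.15% and 72.4% of all genes), and the median member differed by −0.12.

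DDC livers gave close values from separate libraries. There, 76 members fell and 1 rose between hepatocytes and biliary cells on the scaled values (29.2% and 36.3% of all genes), with a median of −1.41, and 70 fell by at least 1 on the log2 scale (14.6% of all genes). With deposited TPM 44 fell and 3 rose (8.62% and 72.4% of all genes), with a median of −0.30. The members moved as a narrow band: the interquartile range of their scaled differences was 0.29 in untreated and 0.25 in DDC livers. That of all genes was 1.498 and 1.41. Only 6 members averaged under 100 TPM, and genes of like abundance were not compared, so the narrowness may not be particular to the members.

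**Figure D3:**
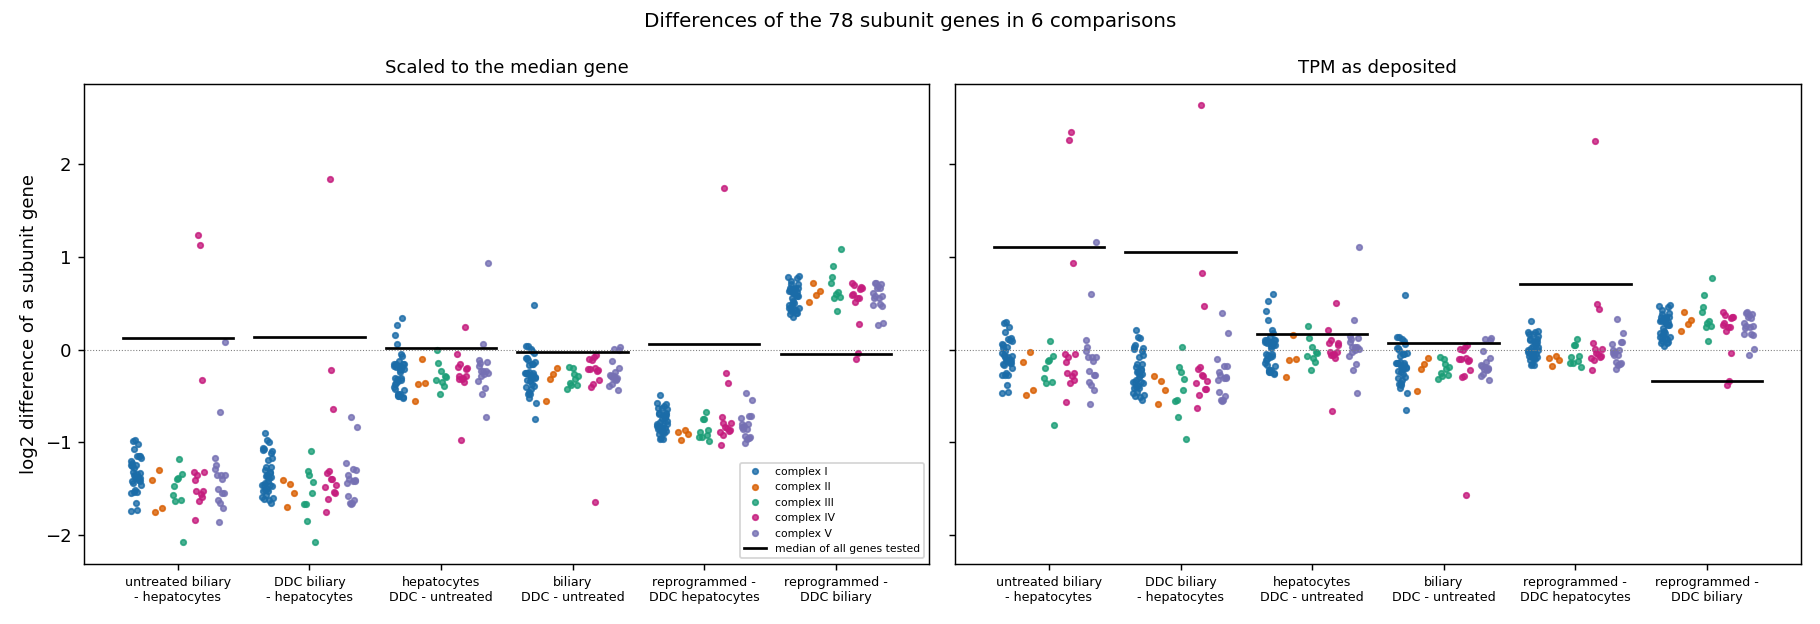
Each point is the log2 difference of 1 subunit gene in the comparison on the x axis, coloured by complex, with the median of all genes tested as a black line: scaled TPM (left) and TPM as deposited (right). Most members lie below the line in both biliary comparisons on either scale, with medians of −1.38 and −1.41 when scaled and −0.12 and −0.30 as deposited; the point above 1 when scaled in both is Cox6b2.

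Among the catalytic core subunits, Ndufs1, which carries iron-sulfur clusters of complex I, was at 77.5, 81.99 and 91.9 TPM in untreated hepatocytes and 76.7, 79.2 and 75.3 in untreated biliary cells. The deposited values of the 2 groups overlap. Ndufs1 fell by 1.38 ± 0.11 scaled (SE, limma adjusted p = 3.55e-07) and differed by −0.12 as deposited. The 7 core subunits of complex I had a median of −1.38 scaled and the 29 other members named for it −1.35, and all of them fell.

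Sdha, the flavoprotein of complex II that oxidises succinate, fell by 1.41 scaled and differed by −0.14 in deposited TPM, the latter without passing. Sdhb, the iron-sulfur protein of the same complex, was at 258, 235 and 293 TPM in untreated hepatocytes and 186, 172 and 199 in untreated biliary cells. All 3 biliary values lay below the hepatocyte ones, and Sdhb fell on both scales, by 1.76 scaled and 0.49 as deposited. In complex III the Rieske protein Uqcrfs1 fell by 1.62 and cytochrome c1 (Cyc1) by 1.57 scaled, and by 0.36 and 0.30 in deposited TPM. Cox4i1, a regulatory complex IV subunit, fell by 1.32 scaled and differed by −0.04 as deposited, where it did not pass. The ATP synthase F1 subunits Atp5a1 and Atp5b fell by 1.17 and 1.29 scaled and differed by 0.10 and −0.01 as deposited, where neither passed. Atp5b was at 1013, 1050 and 1132 TPM in untreated hepatocytes and 1064, 1047 and 1052 in untreated biliary cells, within the same range.

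The largest fall on scaled values in both livers was that of Uqcrq, the ubiquinone-binding protein of complex III. Its level was 199, 192 and 214 TPM in untreated and 170.1, 191 and 235 in DDC hepatocytes. Reprogrammed cells had 143, 208 and 173 TPM, and biliary cells 100.4, 119 and 85.7 under DDC and 124, 110.1 and 111 untreated. No biliary library reached any hepatocyte library. Uqcrq fell by 2.08 ± 0.24 (log2 scaled, SE, limma adjusted p = 6.69e-06) in untreated and by 2.07 ± 0.24 (adjusted p = 7.87e-06) in DDC livers. In deposited TPM it fell by 0.81 and 0.96. Cox5a, a nuclear subunit of complex IV, was at 482, 459 and 501 TPM in untreated hepatocytes and 344, 309 and 319.6 in untreated biliary cells. It fell by 1.84 scaled and 0.57 as deposited. Of the 18 members that fell on both scales in untreated livers, others with large scaled falls were Atp5g1 (−1.86 scaled, −0.59 as deposited), Ndufa1 (−1.74 scaled, −0.47 as deposited), Ndufb9 (−1.73 scaled, −0.46 as deposited), Sdhd (−1.71 scaled, −0.44 as deposited) and Atp5k (−1.71 scaled, −0.44 as deposited).

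Some members fell more or less than the rest, which was tested by scaling each library to the geometric mean of the 78 genes, a setting chosen after the data were seen. In untreated livers 9 members stood above and 20 below the others in biliary cells (72.5% and 6.68% of all genes did so), and in DDC livers 7 and 19 (76.9% and 6.48%). These comparisons share no library. Ndufa6, Ndufb3, Ndufc2, Atp5g2, Cox6b2 and Cox7a2l were above in both, 66.7% of the untreated and 85.7% of the DDC list. Below in both were 12 members, 60% and 63.2% of the lists: Uqcrq, Uqcr11, Cyc1, Cox5a, Cox6a1, Sdhb, Sdhd, Ndufa1, Ndufb9, Atp5f1, Atp5g1 and Atp5g3. Across the 78 members these relative differences had Pearson's r = 0.873 and Spearman's rho = 0.762 between the livers, and r = 0.845 over 75 members without Cox6b2, Cox7a1 and Atp5s. Genes are not independent replicates, so no p is given. The lists depend on single libraries: the count below in DDC livers was 8 without DDC biliary replicate 3, 11 without DDC biliary replicate 1, 11 without DDC hepatocyte replicate 2, 12 without DDC hepatocyte replicate 3 and 4 in a fit of the 2 groups alone. In untreated livers the count below was 12 to 15 whichever library was left out, and lowest without untreated biliary replicate 3. It was 27 in a fit of the 2 groups alone.

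**Figure D4:**
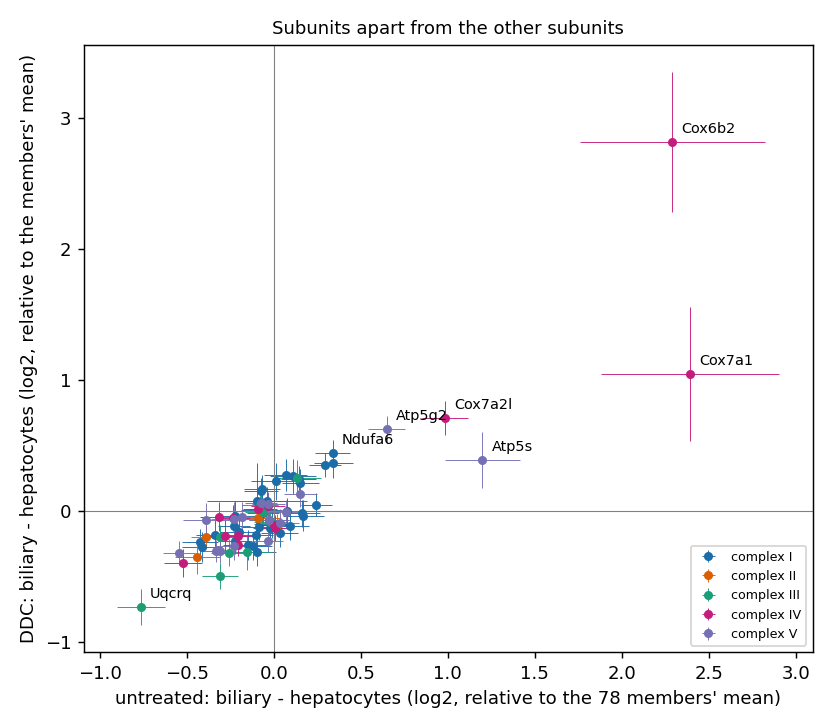
Each point is 1 subunit gene, with its log2 difference between biliary cells and hepatocytes relative to the mean of the 78 members in untreated livers (x axis) and DDC livers (y axis); bars are SE. Uqcrq lies lowest on both axes (−0.76 and −0.73), and Cox6b2, Cox7a2l and Atp5g2 lie above 0 on both.

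Subunits with more than 1 gene shifted between forms, a measure that needs no library scale. The c subunit of the ATP synthase ring is made from Atp5g1, Atp5g2 and Atp5g3, which encode the same mature protein. Atp5g2 gave 15.6%, 16.3% and 14.9% of their summed TPM in untreated hepatocytes, 19.2%, 21.1% and 17.2% in DDC hepatocytes and 27.3%, 23.4% and 25.01% in reprogrammed cells. It gave 30.95%, 30.04% and 32.4% in DDC biliary cells and 25.96%, 29.1% and 27.3% in untreated biliary cells. The share differed without overlap in each of the 6 comparisons (exact permutation test, 2-sided p = 0.1 in each, the smallest that 3 against 3 libraries allow). Between biliary cells and hepatocytes it was 11.9 percentage points higher in untreated and 11.96 in DDC livers. Atp5g2 fell by 0.67 on scaled and rose by 0.60 on deposited values in untreated livers. Atp5g1 and Atp5g3 fell on both, by 1.86 and 1.65 scaled and by 0.59 and 0.38 as deposited.

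Cox7a2l, also called SCAF1, joins complexes III and IV into supercomplexes and resembles Cox7a2, the common complex IV form. Its share of the TPM of Cox7a2 and Cox7a2l was 31.4%, 29.9% and 30.04% in untreated hepatocytes, 36.3%, 45.6% and 38.1% in DDC hepatocytes and 47.2%, 48.8% and 48.5% in reprogrammed cells. DDC biliary cells had 48.9%, 53.3% and 56.8%, and untreated biliary cells 50.4%, 51.97% and 49.4%. Reprogrammed cells thus lay above every DDC hepatocyte library and, only barely, below every DDC biliary library (highest 48.84% against lowest 48.90%). The exact permutation test gave a 2-sided p of 0.1 in both comparisons. The scaled level of Cox7a2l differed by −0.33 in untreated livers without passing (limma adjusted p = 0.0748; 0.0128 with the replicate block) and fell by 0.64 in DDC livers, while in deposited TPM it rose by 0.93 and 0.48.

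Cox7a1, the heart and muscle form of Cox7a2, stood apart in untreated biliary cells. It was at 73.4, 67.1 and 74.99 TPM there, against 12.9, 17.9 and 10.1 in untreated hepatocytes, 21.4, 13.2 and 7.27 in DDC hepatocytes and 21.3, 13.4 and 21.9 in reprogrammed cells. DDC biliary cells were uneven, at 63.6, 10.6 and 18.9 TPM, with library 1 near the untreated biliary level. The scaled difference between untreated biliary cells and hepatocytes was 1.13 ± 0.48 (SE, limma adjusted p = 0.0521; 0.0309 with the replicate block), and in deposited TPM Cox7a1 rose by 2.35 (adjusted p = 0.000783). Between untreated and DDC biliary cells it fell by 1.64 scaled (adjusted p = 0.0228) and 1.56 as deposited. The scaled call was lost without DDC biliary replicate 2 or 3 (adjusted p = 0.0959 and 0.091) or untreated biliary replicate 1 or 3 (0.0711 and 0.0601). The difference between the DDC responses of biliary cells and hepatocytes, −1.34 ± 0.67 scaled and −1.52 as deposited, did not pass (adjusted p = 0.243 and 0.227). The 6 markers of muscle, heart and brown fat summed to 0.481 to 1.42 TPM in untreated biliary cells, with Myh6 and Actc1 at 0, to 5.51 to 13.1 TPM in DDC biliary cells and to at most 0.1005 TPM in untreated hepatocytes.

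Cox6b2, a testis form of Cox6b1, was the member that rose on scaled values in biliary and reprogrammed cells. Biliary cells had 17.4, 13.5 and 12.9 TPM untreated and 20.03, 5.47 and 14.1 under DDC, and reprogrammed cells 16.1, 3.74 and 10.3. Hepatocytes had 1.30, 3.95 and 1.98 TPM untreated and 2.55, 0.218 and 0.989 under DDC, and of the biliary and reprogrammed libraries only reprogrammed library 2 overlapped them. Its rise was 1.24 (limma adjusted p = 0.0459) between untreated hepatocytes and biliary cells, 1.84 (adjusted p = 0.00626) in DDC livers and 1.74 (adjusted p = 0.013) between DDC hepatocytes and reprogrammed cells. As deposited the 3 rises were 2.26, 2.63 and 2.25. The first scaled call was lost without any 1 of 5 of its 6 libraries, untreated hepatocyte replicate 2 being the exception. The last was lost without reprogrammed replicate 1 or DDC hepatocyte replicate 2 (adjusted p = 0.0608 and 0.0578). Even in biliary cells Cox6b2 gave at most 2.68% of the TPM of Cox6b1 and Cox6b2.

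**Figure D5:**
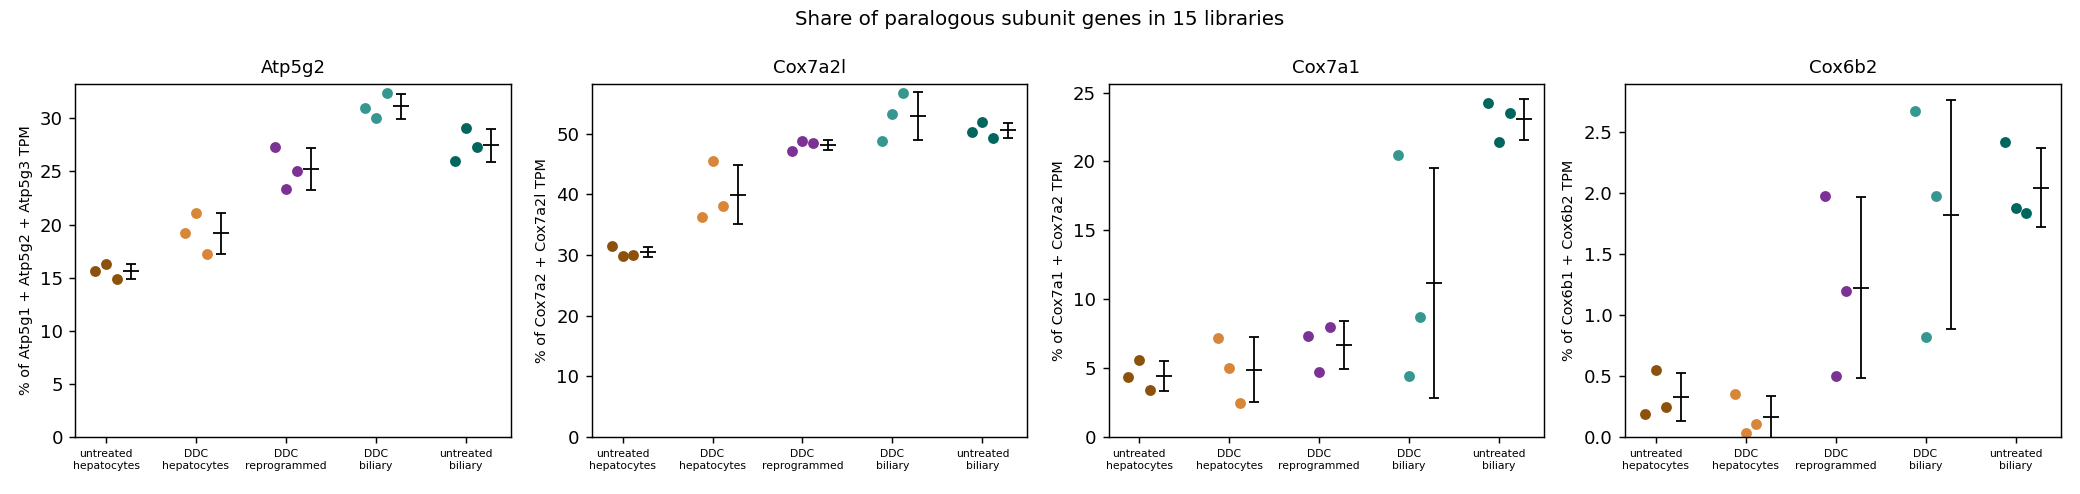
Each point is 1 library of the group on the x axis, with the mean and SD (n = 3) beside it; the y axis is the share of a gene in the TPM of its family. Atp5g2 and Cox7a2l average 15.6% and 30.4% in untreated hepatocytes and 31.1% and 52.99% in DDC biliary cells, Cox7a1 is high in untreated biliary cells and in 1 DDC biliary library, and Cox6b2 reaches at most 2.68%.

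Under the DDC diet most subunits lay lower on scaled values, and few passed the test. The difference was below 0 for 71 of 78 members in each cell type on that scale. The same share of all genes was not computed. Called in either direction when scaled were 12.8% of members in hepatocytes and 6.41% in biliary cells. That is no more than fell among all genes (12.9% in each). With deposited TPM it was below 0 for 38 members in hepatocytes, with a median of 0.0046, the median gene being at 0.17. In biliary cells it was below 0 for 64 members as deposited, with a median of −0.17, the median gene being at 0.07. The fall in hepatocytes thus depends on the scale. In hepatocytes 9 members fell and 1 rose on scaled values (12.9% and 14.8% of all genes; 23 fell and 1 rose at an unadjusted p under 0.05 in limma), with a median of −0.26, the median gene being at 0.02, and with deposited TPM 1 fell and 5 rose (5.06% and 19.8% of all genes). Those that fell on scaled values were Ndufb2, Ndufb5, Ndufb11, Ndufs1, Ndufs7, Ndufs8, Sdha, Uqcrc2 and Atp5k. The count of falls was 21 without DDC hepatocyte replicate 3, 5 without DDC hepatocyte replicate 1 or 2, and 4 without untreated hepatocyte replicate 1 or 3. The calls of Ndufb2 and Ndufb11 were lost without any single library compared except DDC hepatocyte replicate 3. That of Uqcrc2 was lost without DDC hepatocyte replicate 3 or any untreated hepatocyte library. In biliary cells 5 members fell and 0 rose (12.9% and 13.3% of all genes; 19 fell and 0 rose at an unadjusted p under 0.05 in limma), with a median of −0.27, the median gene being at −0.03, and with deposited TPM 8 fell and 0 rose (9.26% and 15.8%). The 5 that fell on scaled values were Ndufb2, Ndufb11, Ndufs7, Sdha and Cox7a1. Their count was 2 without DDC biliary replicate 2 or 3 or untreated biliary replicate 1 or 3, and 3 without untreated biliary replicate 2. The call of Ndufb11 was lost without any single library compared, and that of Ndufb2 without any except DDC biliary replicate 1. All 3 DDC biliary libraries lay below all 3 untreated ones for 41 members scaled (26.2% of all genes) and 40 as deposited (18.02%). In hepatocytes this held for 16 members scaled (18.3% of all genes) and 5 as deposited (9.10%). Rn45s, a ribosomal RNA precursor, and Lars2 did not overlap between DDC and untreated libraries of either cell type. Rn45s was at 937 to 1553 TPM in untreated and 1631 to 3682 in DDC hepatocytes, and at 673 to 1024 in untreated and 2363 to 2643 in DDC biliary cells. Lars2 was at 257 to 375 and 500.3 to 1255 TPM in hepatocytes and at 155 to 207 and 695 to 775 in biliary cells. The 6 neutrophil markers summed to 0.748 to 1.19 TPM in untreated and 7.64 to 10.5 in DDC hepatocytes, and to 0.924 to 2.51 in untreated and 33.2 to 45.97 in DDC biliary cells. DDC hepatocyte library 1 was the highest of its group in Rn45s and Lars2 and the lowest in summed scaled subunit level, 35727, and library 3 the reverse, 52969. The part of these in the DDC differences was not tested.

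Ndufs7, a core complex I subunit, was at 119.9, 127 and 140.0 TPM in untreated and 115, 98.5 and 108 in DDC hepatocytes, and at 136, 135 and 149.7 in untreated and 89.3, 85.9 and 91.4 in DDC biliary cells. Neither pair of groups overlapped. Ndufs7 fell by 0.52 in hepatocytes (limma adjusted p = 0.0016) and by 0.75 in biliary cells (adjusted p = 0.000112) on scaled values. In deposited TPM it fell in biliary cells, by 0.65, and differed by −0.26 in hepatocytes (adjusted p = 0.0775). Sdha was at 329, 355 and 332 TPM in untreated and 302, 277 and 250.5 in DDC hepatocytes, and at 323, 300.3 and 301 in untreated and 254, 216 and 209.6 in DDC biliary cells. DDC values lay below untreated ones in both cell types, and Sdha fell by 0.55 scaled in hepatocytes and 0.55 in biliary cells. As deposited it fell by 0.45 in biliary cells and differed by −0.29 in hepatocytes without passing (limma adjusted p = 0.0605). The ATP synthase subunit Atp5k was at 1675, 1854 and 1970 TPM in untreated and 1344, 1130 and 1530 in DDC hepatocytes, and fell by 0.73 scaled and 0.46 as deposited.

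The member that rose in DDC hepatocytes was Atp5s, listed by RefSeq as Dmac2l. It was at 4.85, 2.48 and 3.98 TPM in untreated and 7.97, 11.2 and 8.22 in DDC hepatocytes, without overlap. Its rise of 0.94 scaled (limma adjusted p = 0.0181) was lost without DDC hepatocyte replicate 2 or untreated hepatocyte replicate 2 (adjusted p = 0.0674 and 0.0799). As deposited it rose by 1.11. Between the DDC responses of biliary cells and hepatocytes 0 members differed in either direction on scaled or deposited values (5.41% and 7.42% of all genes higher and lower when scaled, 3.78% and 6.49% as deposited). At an unadjusted p under 0.05 in limma 1 member differed, Atp5s, and 1 member passed as lower without DDC biliary replicate 1.

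Reprogrammed cells lay between DDC hepatocytes and DDC biliary cells on scaled values, and near DDC hepatocytes with deposited TPM. On scaled values 73 members fell and 1 rose against DDC hepatocytes (20.7% and 26.9% of all genes), with a median of −0.83, the median gene being at 0.06, and 2 fell by at least 1 on the log2 scale (5.8% of all genes). With deposited TPM 0 members fell and 4 rose (1.8% and 64.4% of all genes), with a median of −0.03. Against DDC biliary cells 52 members rose and 0 fell when scaled (8.51% and 6.32% of all genes), with a median of 0.60, and 25 rose and 0 fell as deposited (4.65% and 21.6%), with a median of 0.28. The median over DDC biliary cells was above 0 on either scale, but the scaled count was 2 without reprogrammed replicate 2, 2 without DDC biliary replicate 3, 30 without reprogrammed replicate 3 and 0 in a fit of these 2 groups alone. Reprogrammed library 2 had the highest hepatocyte marker sum of its group, 76865 TPM against 30660 and 50995, and the DDC biliary libraries had 20951, 40555 and 20653. Rn45s was at 697 to 1132 TPM in reprogrammed and 2363 to 2643 in DDC biliary cells, and Lars2 at 225 to 329 and 695 to 775, both without overlap. The part of these in the difference was not tested.

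The scaled group mean of reprogrammed cells lay between those of the other DDC groups for 77 of 78 members, and 47 members had the order hepatocytes, reprogrammed, biliary in deposited TPM. The share of all genes with such an order was not computed, so neither count is a trait of the members. Uqcrq rose by 1.09 scaled and 0.77 as deposited against DDC biliary cells, and Uqcr11 by 0.91 and 0.59. Both scaled calls were lost without reprogrammed replicate 2 or DDC biliary replicate 3, with limma adjusted p of 0.0629 and 0.0707 for Uqcrq. Ndufv3, a small complex I subunit, rose by 0.80 and 0.48, and Cox5a by 0.72 and 0.40. The scaled call of Ndufv3 was lost without the same libraries (limma adjusted p = 0.105 and 0.0981), and that of Cox5a without reprogrammed replicate 2 or 3 (0.164 and 0.0782) or DDC biliary replicate 1 or 3 (0.0686 and 0.162). Against DDC hepatocytes Cox5a fell by 1.03, Uqcrq by 0.98, Sdhb by 0.98 and Ndufb9 by 0.97 on scaled values, and as deposited these 4 differed by −0.23, −0.19, −0.18 and −0.17 without passing. The 4 that rose there in deposited TPM were Ndufa6, Atp5g2, Cox7a2l and Cox6b2. Both comparisons use the same reprogrammed libraries, so they are not independent.

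Other genes of the organelle were read from lists chosen with earlier results known. In untreated livers 42 of 49 assembly factors, which build the complexes, fell in biliary cells on scaled values and 0 rose, with a median of −0.84. So did 75 of 78 mitochondrial ribosomal proteins (median −0.92), 25 of 26 import proteins (median −1.08) and 17 of 19 citric acid cycle and pyruvate dehydrogenase genes (median −1.25; 1 rose). In deposited TPM the medians were 0.39, 0.33, 0.16 and 0.02, and the median of all genes was 1.11, so these medians lay below that of all genes on both scales. Of 77 cytosolic ribosomal protein genes 31 fell and 0 rose when scaled, with a median of −0.31, where 29.9% of all genes fell, and 73 rose as deposited, where 72.4% of all genes did. In DDC livers 63 of these 77 fell and 0 rose when scaled, with a median of −0.57, where 29.2% of all genes fell. As deposited 65 rose there, where 72.4% of all genes did. The scaled fall in DDC biliary cells was thus not confined to mitochondrial genes. Cytochrome c (Cycs), the mobile electron carrier outside the name rule, was at 60.7, 61.8 and 76.1 TPM in untreated hepatocytes and 43.7, 47.3 and 50.3 in untreated biliary cells. Cycs fell by 1.73 scaled and by 0.48 as deposited. Ndufab1, the acyl carrier protein of complex I, likewise outside the rule, fell by 1.38 scaled and differed by −0.11 as deposited.

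Of 26 measured regulators of mitochondrial gene expression 14 fell and 8 rose in untreated biliary cells on scaled values (median −0.45; 29.9% and 37% of all genes), and 2 fell and 21 rose in deposited TPM (7.15% and 72.4% of all genes). Nrf1 was at 3.96, 4.21 and 3.91 TPM in untreated hepatocytes and 14.7, 17.8 and 16.1 in untreated biliary cells, and rose on both scales, by 0.66 scaled and 1.77 as deposited. Ppargc1a, the coactivator PGC1 alpha, was at 1.997, 1.88 and 2.70 TPM in untreated hepatocytes, 12.4, 14.04 and 14.4 in untreated biliary cells and 5.79, 5.34 and 4.07 in DDC biliary cells. Ppargc1a rose by 1.17 between untreated hepatocytes and biliary cells and fell by 1.30 between untreated and DDC biliary cells when scaled, and by 2.20 and 1.27 as deposited. The difference between the DDC responses of the cell types was −1.62 ± 0.35 scaled (SE, limma adjusted p = 0.00853) and −1.75 as deposited (adjusted p = 0.00273). Gabpa, the DNA-binding GABP subunit, fell by 0.51 scaled and rose by 0.71 as deposited in untreated livers, and Esrra, an estrogen-related receptor, fell by 0.45 and rose by 0.76. Tfam, which packages and transcribes mitochondrial DNA, fell by 0.99 scaled and rose by 0.22 as deposited. For these 3 regulators the direction depends on the scale.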

How the data were processed

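RNA from sorted mouse liver cells was sequenced in 15 libraries. Per the submitters' processing notes, the authors' deposited gene TPM come from Salmon and mm10; no version is stated there. TPM carry no read totals, so depth and counting error are unknown. Genes with TPM of at least 1 in at least 3 libraries (13905 of 24493) were tested. Each library was divided by the median, over 12427 genes above 0 everywhere, of its ratio to the geometric mean. Then log2(scaled TPM + 1) was fitted with limma 3.58.1 in R 4.3.3 (1 fit of 5 groups, mean-variance trend, 10 residual degrees of freedom, Benjamini-Hochberg adjustment over all genes, threshold 0.05). Differences on this scale understate the change of low genes. The code was tested on simulated data in which few genes changed, so that test says nothing of the choice of scale.

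Members and gene lists were chosen with earlier results of these data known. Genes named were core subunits, tissue forms, per comparison and complex up to 2 called members with the largest difference in each direction, the highest and lowest members of a complex, members below the minimum, and 7 genes always shown (Ppargc1a, Nrf1, Gabpa, Esrra, Tfam, Cycs, Ndufab1); other names in full lists of called members were chosen after their values were seen. Marker sums use 6 genes per cell type. Same-numbered libraries deviated together (correlation of deviations from group means, every pair over 0.1) for untreated hepatocytes and biliary cells (0.151 to 0.237), DDC hepatocytes and reprogrammed cells (0.136 to 0.449) and reprogrammed and DDC biliary cells (0.208 to 0.456). Promoters are RefSeq's (GRCm38.p6). Alternatives changed the scaling, pseudocount, filter, groups fitted, size threshold and replicate block, and left out each library.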

Additional observations from a re-analysis of the deposited data

How the results depend on the processing

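Counts of members are given as higher/lower, on scaled values unless said otherwise. With TPM as deposited they were 7/18 for untreated biliary cells against hepatocytes, 3/44 for the same in DDC livers, 5/1 for DDC against untreated hepatocytes, 0/8 for DDC against untreated biliary cells, 4/0 for reprogrammed cells against DDC hepatocytes, 25/0 for reprogrammed against DDC biliary cells and 0/0 for the difference of DDC responses. In that order quantile normalization gave 3/38, 2/57, 5/1, 0/10, 1/12, 19/0 and 0/1. Scaling to the sum of genes under 1000 TPM, chosen after seeing the data, gave 4/71, 1/72, 3/4, 0/11, 1/56, 39/0 and 0/1. Fits of the groups compared alone gave 2/75, 1/76, 0/3, 0/10, 0/57, 0/0 and 0/0. A size of at least 1 on the log2 scale left 1/71, 1/70, 0/0, 0/1, 1/2, 1/0 and 0/0. A pseudocount of 0.1 gave 0/74, 1/76, 1/9, 0/4, 1/73, 38/0 and 0/0, a pseudocount of 5 gave 2/74, 1/76, 1/9, 0/4, 1/73, 55/0 and 0/0, and no filter 0/74, 1/76, 1/7, 0/3, 1/73, 36/0 and 0/0.

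With the replicate number as a block the counts were 2/75, 1/76, 1/8, 0/3, 1/76, 58/0 and 0/0. The block added Cox7a2l and Cox7a1 to the first, and Ndufs5, Atp5s and Cox7a2l to reprogrammed against DDC hepatocytes. DDC and untreated libraries share only a number, and DDC hepatocytes and biliary cells did not pass the check of pairing (correlations of 0.0430 to 0.319).

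Leaving out each library in turn gave 0 to 1 higher and 74 lower in the first comparison, 1 higher and 75 to 77 lower in the second, 0 to 2 higher and 4 to 21 lower in the third, and 0 higher and 2 to 6 lower in the fourth. It gave 0 to 1 higher and 71 to 75 lower in the fifth, 2 to 60 higher and 0 lower in the sixth, and 0 higher and 0 to 1 lower in the last. Some single genes reversed with the scale: Atp5g2 in untreated biliary cells was at 0.60 as deposited and 0.56 with quantiles, Atp5a1 at 0.10 and 0.030. In DDC biliary cells Atp5g2 was at 0.39 and 0.38 and Cox7a2l at 0.48 and 0.33, and in reprogrammed cells Atp5g2 was at 0.33 and 0.27. Of 51 differences of named members, 29 kept direction and call as deposited and 17 lost the call. With quantiles it was 27 and 19, and leaving out libraries 252 kept and 54 lost. The cause of each change was not tested, beyond the fewer samples or the scale itself. Depth cannot be read from TPM, so counting error of low members such as Cox6b2 and Atp5s is unknown.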
